A study of Mus musculus with 24 samples.

Results

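Cfap69 encodes cilia and flagella associated protein 69, and was followed across 3 tissues of Smc6 mutant and control mice on Illumina MouseRef-8 bead arrays. Both of its probes in the platform annotation, ILMN_2714209 and ILMN_2628236, were taken, out of 25697 probes on the array, so that the account concerns 1 of 16593 annotated genes. The gene was chosen by its measured signal, namely the testis values that differed between the genotypes of the control mice and the brain values that fell at 2 levels, so those values are given as a description without a test. Differences between control tissues draw on the same testes and brains, so they too are given without a p-value.

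The SMC5/6 complex, of which SMC6 is a core subunit, acts in DNA repair, and the series asked how the transcriptomes of mice homozygous for a mutation in Smc6 differed from those of controls. All mice were males of a mixed C57BL/6J, 129ola and FVB background, with 1 animal per array. The testes and spleens were taken from 1 set of 8 animals, 12 weeks old. By their mouse identifiers these were 2 wild-type (+/+) mice, control replicates 1 and 2, 2 heterozygous (+/-) mice, control replicates 3 and 4, and 4 mutants, although the genotype label calls all 4 controls wildtype. Brain came from other mice at 19 weeks, 4 wild type and 4 mutant. Smc6 itself read between 7.93 and 8.29 (log2 intensity) in all 8 testes, and since the effect of the mutation on its transcript is not stated, this level is no check on genotype. Detected probes numbered 12708 to 13344 in a testis, 12049 to 13134 in a spleen and 13784 to 14234 in a brain, and the number of arrays limits the precision of every value.

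CFAP69 is a protein of the axoneme, the microtubule core of cilia and flagella. In the mouse it is needed to build the sperm flagellum, and males that lack it are infertile. It is also present in the cilia of olfactory sensory neurons, where it shapes the time course of the response to odours. Developing spermatids assemble the flagellum in the testis, whereas adult spleen has few cells with motile cilia and brain has them mainly on the ependyma and choroid plexus.

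The gene lies on chromosome 5 of the mouse, at chr5:5579278-5664232 on the minus strand in assembly GRCm38.p6, and spans 84955 bases. The RefSeq promoter window of GRCm38.p6, chr5:5664183-5664482 on the minus strand, covers 250 bases before and 50 bases after the annotated start. It is shown because this gene carried the widest testis difference described below. Capitals mark AGCAAC, the letters of one arm of the X-box, the motif bound by RFX factors that act on many ciliary genes. The motif was searched on both strands and was chosen with the sequence in view.
Cfap69 promoter: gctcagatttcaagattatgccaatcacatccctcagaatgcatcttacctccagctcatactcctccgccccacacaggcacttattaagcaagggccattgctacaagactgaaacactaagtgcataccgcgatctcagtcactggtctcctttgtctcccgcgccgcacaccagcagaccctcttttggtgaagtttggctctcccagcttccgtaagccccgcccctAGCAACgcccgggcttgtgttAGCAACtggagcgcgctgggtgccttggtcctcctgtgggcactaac
It occurred 2 times on the strand of the gene, starting 18 bases before and 3 bases after the start, and 0 times on the other strand. Of 32851 mouse promoter windows of the same 300 bases, 14.8% held at least 1 match on either strand and 1.5% held at least 2. A match of these letters is no evidence that a factor binds there. Probe sequences were not used here, so the exons that the 2 probes read are not given.

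In testis the heterozygous mice carried far less Cfap69 signal than either the wild-type or the homozygous mutant mice. Probe ILMN_2714209 had deposited intensities of 3075 and 2755 in the wild-type testes and of 75.04 and 118 in the heterozygous testes. The 4 mutant testes gave 2193, 1932, 1916 and 2346. The heterozygous values lay below all others by a wide margin, and the 3 genotypes did not overlap. Mean intensity was 30.2 times higher in wild-type than in heterozygous testes and 21.7 times higher in mutant than in heterozygous testes, while the mutants stood at 71.9% of the wild-type mean. The order of the levels was therefore wild type, mutant, heterozygous, which does not follow the number of mutant Smc6 alleles.

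Probe ILMN_2628236 gave the same order of group means with a smaller spread. Its intensities were 983 and 561 in the wild-type testes, 87.2 and 103 in the heterozygous testes and 600, 529, 520 and 711 in the mutants. Here the mutants overlapped the wild type, since wild-type replicate 2 lay within the mutant range, and only the heterozygous mice stood apart. The ratio of mean intensities was 8.13 for wild type over heterozygous and 6.22 for mutant over heterozygous. Mutants averaged 76.5% of the wild-type level. Both probes were detected in all 8 testes, the heterozygous ones included, so the signal there remained above background.

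**Figure D1:**
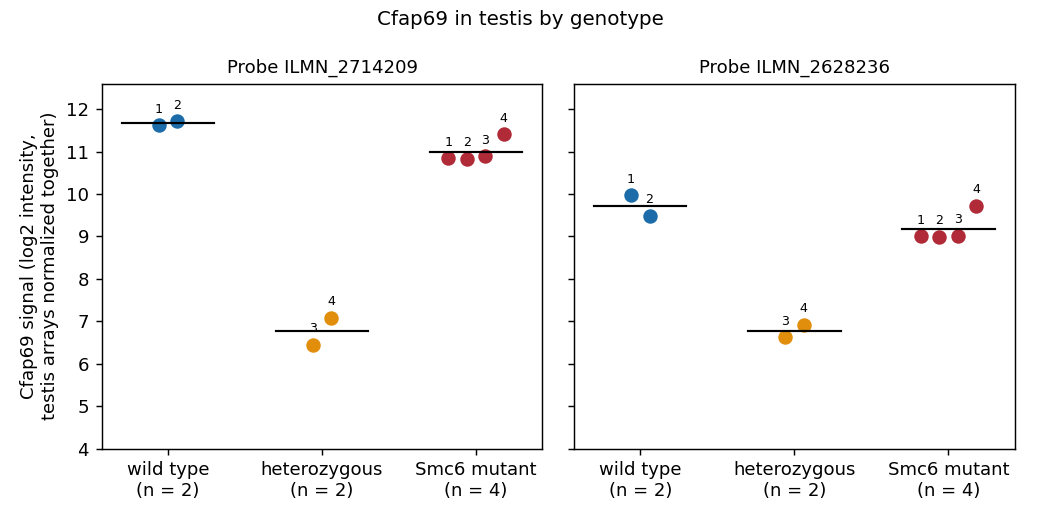
Cfap69 signal in each testis (vertical axis, log2 intensity after background correction and quantile normalization of the 8 testis arrays) by genotype (horizontal axis) for both probes; points are mice with their replicate numbers within controls or mutants, and lines are group means. The 2 heterozygous mice sit between 6.44 and 7.09 on both probes, below every wild-type and mutant mouse.

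On the normalized log2 scale ILMN_2714209 read 11.62 and 11.71 in wild-type, 6.44 and 7.09 in heterozygous and 10.84, 10.83, 10.89 and 11.40 in mutant testes. The heterozygous minus wild-type difference was -4.90 (SE 0.23), and the mutant minus heterozygous difference was 4.22 (SE 0.20). Mutants differed from the wild type by -0.67 (SE 0.20). For ILMN_2628236 the same 3 differences were -2.96 (SE 0.25), 2.42 (SE 0.22) and -0.55 (SE 0.22). In size, the heterozygous minus wild-type differences of the 2 probes ranked 1 and 2 of the 13152 probes tested in testis. The choice of the gene accounts for these ranks, and nothing is read from them. These comparisons share groups, and the group of 2 heterozygous mice enters 2 of them.

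At a limma adjusted p under 0.05, 3 of the 13152 probes (0.0228%) passed between heterozygous and wild-type testes, all of them lower in the heterozygous mice. They were the 2 Cfap69 probes, which the choice of the gene accounts for, and Apoh. Apoh, which encodes the plasma protein beta-2-glycoprotein I, read 6.48 and 6.47 in wild-type and 5.55 and 5.36 in heterozygous testes. It differed by -1.02 (SE 0.13, limma adjusted p = 0.0336), and unlike Cfap69 it was also low in the 4 mutants, at 5.52 to 5.78. Its call was lost when any single array other than mutant replicate 4 was left out, and with median scaling, floored intensities or the deposited normalized table. Between mutant and heterozygous testes 2 probes (0.0152%) lay past the same threshold, both of Cfap69, a count that the choice of the gene fixes and from which nothing is read. None of the 13152 probes passed between mutant and wild-type testes (0%), where 710 had an unadjusted limma p under 0.05.

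Pooling the 4 controls as the labels do gave a different picture. The control group then held intensities from 75.04 to 3075 of ILMN_2714209, and the mutant values lay inside that range. The mutant minus control difference was 1.77 (SE 1.01) for this probe and 0.93 (SE 0.63) for ILMN_2628236, the groups overlapped, and 0 of 13152 probes (0%) passed between mutants and pooled controls, with 629 at an unadjusted limma p under 0.05. Leaving out 1 array at a time moved the difference of ILMN_2714209 between 0.85 and 2.61. It was lowest without heterozygous replicate 3 and highest without a wild-type mouse.

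Genes for other parts of the flagellum lay near 0 in the same comparison. Of 17 other genes named Cfap on the array, 14 were measured in testis, and 0 passed between heterozygous and wild-type mice, against 0.0228% of all probes. Their median difference was 0.02, with a range from -0.23 to 0.14, beside a median of 0.00 over all probes. Cfap57 and Cfap161, the members with the smallest p, differed by -0.23 (SE 0.15, limma adjusted p = 0.917) and -0.19 (SE 0.13, limma adjusted p = 0.917).

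**Figure D2:**
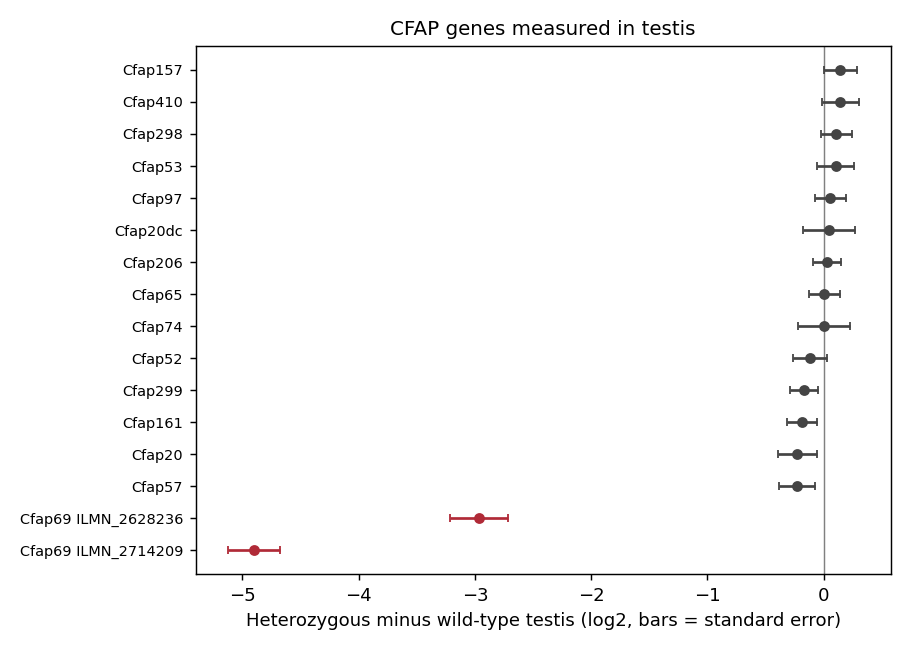
Heterozygous minus wild-type difference in testis (horizontal axis, log2, with its standard error) for each measured gene named Cfap (vertical axis), each by its brightest detected probe, with both Cfap69 probes in red. The 14 other genes lie between -0.23 and 0.14, and the Cfap69 probes lie at -4.90 and -2.96.

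A list of genes in which defects give multiple malformations of the sperm flagellum, as CFAP69 loss does, had 13 measured members. In this list 0 passed, against 0.0228% of all probes, with a median of 0.04. Its smallest p belonged to Ift74, a carrier of cargo into growing flagella, at 0.33 (SE 0.18, limma adjusted p = 0.895), and to Dzip1, a protein of the ciliary base, at 0.24 (SE 0.18, limma adjusted p = 0.929). Of 25 measured structural genes of the flagellum, such as tektins, outer dense fibre proteins and sperm calcium channel subunits, 0 passed and the median was 0.01. The summed intensity of that list was 101083 to 117487 in wild-type, 115526 to 128520 in heterozygous and 104952 to 136373 in mutant testes.

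Markers of the cells that build the flagellum were near their wild-type levels in the heterozygous testes. The 18 measured genes of round spermatids had a median difference of 0.00, the 14 of elongating spermatids -0.07 and the 22 of spermatocytes 0.00. In these lists 0 members passed, against 0.0228% of all probes. The median level of the elongating spermatid genes was 12.86 and 12.95 in wild-type, 12.82 and 12.78 in heterozygous and 12.67 to 12.83 in mutant testes. In bulk tissue, fewer cells of a type and less RNA per cell cannot be told apart. Of 18 Sertoli cell and 7 Leydig cell genes 0 passed as well, with medians of -0.02 and 0.16.

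Signal from tissue outside the testis also varied. Of 20 pancreatic acinar genes on the array, 11 were measured in testis, and all 11 lay above 0 in the heterozygous minus wild-type comparison. Their median was 0.37, and 0 passed, against 0.0228% of all probes. Their summed intensity was 131 and 308 in wild-type testes, 212 and 607 in heterozygous testes and 156 to 3713 in mutants, highest in mutant replicate 1. The part of this signal in the Cfap69 values was not tested. The 6 measured adipose genes had a median of -0.10.

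The measured genes around Cfap69 on the chromosome differed less than Cfap69 did between heterozygous and wild-type testes. Of 103 other annotated genes within 5 Mb on either side, 30 were on the array and 18 were measured in testis. In this comparison 0 of the 18 passed, against 0.0228% of all probes, and 12 lay above 0 and 6 below. Their median difference was 0.10, with a range from -0.21 to 0.98, beside a median of 0.00 over all probes. Steap2, a metalloreductase gene that ends 0.597 kb beyond the start of Cfap69, differed by 0.11 (SE 0.13, limma adjusted p = 0.958). On the other side, Cldn12, a claudin gene 64.3 kb away, differed by -0.06 (SE 0.21, limma adjusted p = 0.990).

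Cdk14, which encodes a cyclin-dependent kinase and lies 199 kb away, had the widest difference of the neighbours. It read 5.69 and 5.90 in wild-type, 6.79 and 6.77 in heterozygous and 6.30, 6.54, 6.27 and 5.95 in mutant testes. The heterozygous mice were the highest of the 8, a difference of 0.98 (SE 0.17) with a limma adjusted p of 0.317. The share of all probes that set these mice apart in this way was not counted, so nothing is read from that order. The other neighbours within 4 measured genes on each side, Akap9 and Cyp51 on the side of Cdk14 and Tex47, Sri and Adam22 on the side of Steap2, lay between -0.21 and 0.41 by their brightest probes. Sri gave the value of 0.41, and its other probe gave -0.34.

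**Figure D3:**
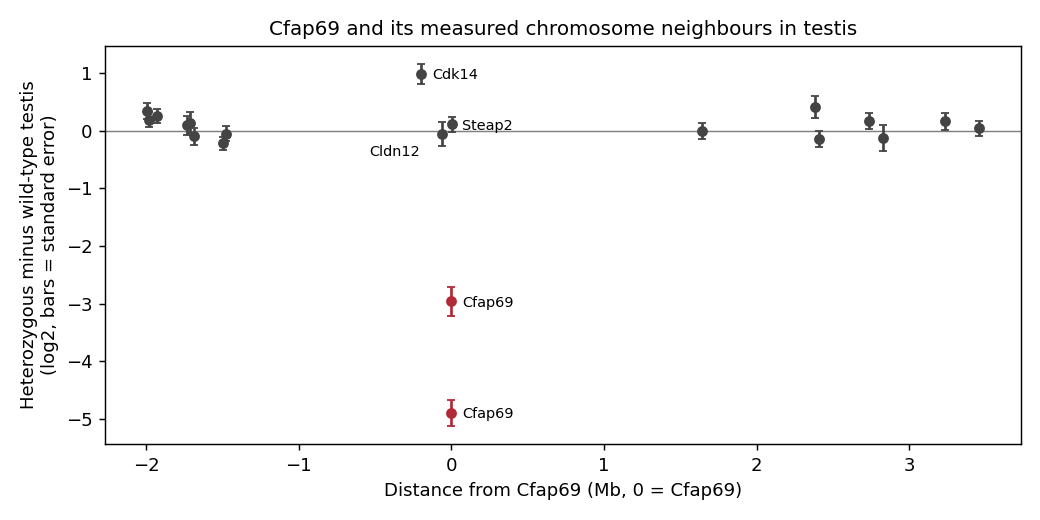
Heterozygous minus wild-type difference in testis (vertical axis, log2, with its standard error) against distance from Cfap69 (horizontal axis, Mb) for each measured neighbour by its brightest detected probe, with both Cfap69 probes in red at 0. The neighbours lie between -0.21 and 0.98, the highest being Cdk14, well above the Cfap69 values.

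In brain Cfap69 was low but present, over a like range in mutants and wild type. ILMN_2714209 was detected in all 8 brains, with intensities of 65.4, 77.0, 117 and 122 in wild-type replicates 1 to 4 and of 63.4, 50.6, 96.2 and 127 in mutant replicates 1 to 4. Each group held low and high values. The mutant minus wild-type difference was -0.01 (SE 0.25), and for ILMN_2628236 it was -0.02 (SE 0.21). These are given without a test, since the gene was chosen on the levels of these 8 brains. In this comparison 4 of 14027 probes (0.0285%) passed at a limma adjusted p under 0.05, none of them from Cfap69.

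The brains fell at 2 levels within each group. On the log2 scale ILMN_2714209 read 6.29, 6.37, 7.00 and 7.04 in the wild type and 6.31, 6.18, 6.91 and 7.26 in the mutants. The 4 lower brains, replicates 1 and 2 of each group, spanned 0.19, and the 4 higher ones spanned 0.34. Between them lay a gap of 0.55, and the means of the 2 sets were 0.77 apart. The same 4 brains were lowest, with a gap of 0.51 to 0.65, under each of 4 other normalizations. Within a genotype the labels of the lower and higher brains differ only in mouse identifier and replicate or sample number.

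The levels of the second probe were less separate. ILMN_2628236 was detected in 3 of 4 wild-type and 2 of 4 mutant brains and read 4.78, 4.99, 5.51 and 5.18 in the wild type and 4.77, 4.66, 5.32 and 5.60 in the mutants. Its 4 lowest brains were the same 4, but its widest gap was 0.21 and set apart 3 brains, wild-type replicate 1 and mutant replicates 1 and 2. Those 3 were also the brains in which it was not detected.

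**Figure D4:**
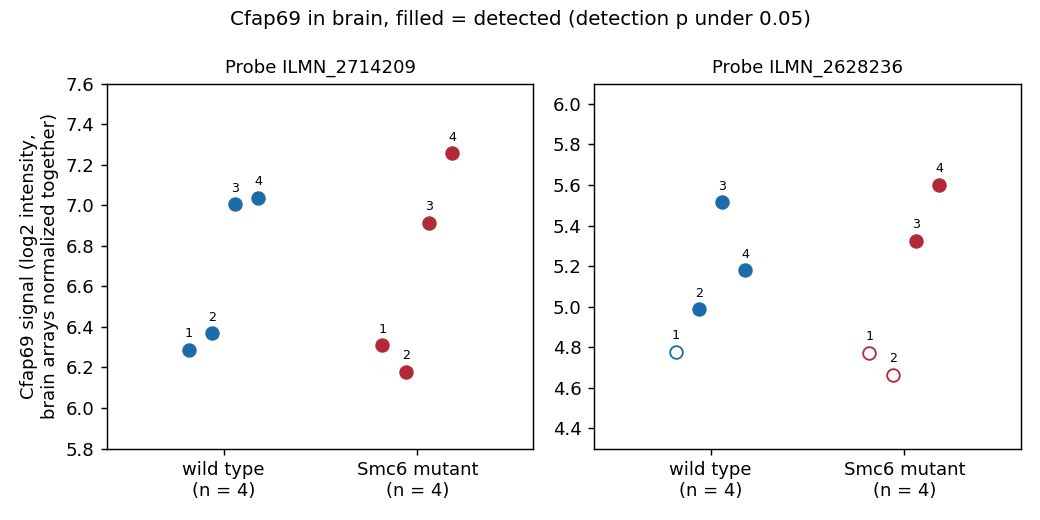
Cfap69 signal in each brain (vertical axis, log2 intensity of the 8 brain arrays normalized together, with a separate range for each probe) for wild-type and mutant mice (horizontal axis); points carry replicate numbers, and hollow points were not detected. ILMN_2714209 lies at 6.18 to 6.37 in 4 brains and at 6.91 to 7.26 in the other 4, with both genotypes at both levels.

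Genes of ciliated brain cells were compared array by array with Cfap69. The median normalized level of 15 measured genes of motile, ependymal cilia was 6.08, 5.95, 5.96 and 6.02 in wild-type replicates 1 to 4 and 5.81, 5.94, 5.81 and 6.07 in the mutants, so the groups overlapped. Their summed unnormalized intensity was 1146 to 1323 in the wild type and 1001 to 1057 in the mutants, whose arrays were also dimmer as a whole, with upper quartiles of intensity of 145 to 162 against 169 to 189. In the test 0 of the 15 passed, with a median of -0.03, and Foxj1, the regulator of motile cilia, differed by -0.23 (SE 0.09, limma adjusted p = 0.312). Of 14 choroid plexus genes 0 passed with a median of 0.21, and all 14 lay above 0 in mutant minus wild type. Of 8 other Cfap genes 0 passed with a median of 0.01. Of all probes 0.0285% passed, and their median difference was -0.006.

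Olfactory markers were examined because CFAP69 is found in olfactory neurons and brain dissections can differ in how much bulb they keep. For 10 measured olfactory bulb genes, median levels were 6.57, 6.27, 6.38 and 6.72 in wild-type replicates 1 to 4 and 6.77, 7.12, 6.29 and 6.88 in the mutants. The part of these genes' levels in the Cfap69 values was not tested. Of the 11 measured olfactory neuron genes 0 passed, against 0.0285% of all probes, with a median of -0.01. Cnga2 and Stoml3 of that list were not detected in any brain. Of 14 neuronal markers, 10 were measured in brain, with median levels of 12.10 to 12.28 on every array, and 3, Snap25 among them, were not detected in any brain.

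In spleen Cfap69 was at background. ILMN_2714209 was detected in 1 of 8 spleens, wild-type replicate 1 at an intensity of 8.58, and its log2 values lay between 4.32 and 4.63. ILMN_2628236 was detected in 0 of 8. Neither probe passed the filter of detection on 4 of 8 arrays, so the genotypes were not compared there. The heterozygous spleens came from the same mice as the low testes and read 4.50 and 4.32, against 4.63 and 4.49 in the wild type, values too close to background to rank. The tissue itself carried its own markers, with 10 of 11 B cell genes measured, Pax5 being the one not detected, and 12 of 13 erythroid genes.

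Across control tissues the signal was highest in testis. With all 24 arrays normalized together, ILMN_2714209 read 9.17 ± 2.67 in control testes, 6.20 ± 0.38 in control brains and 4.64 ± 0.22 in control spleens (log2 intensity, mean ± SD, n = 4). The wide testis SD comes from the 2 genotypes pooled there. ILMN_2714209 was detected in 1 of the 4 control spleens, so its differences from spleen are taken against a signal mostly not above background. Testis exceeded spleen by 4.53 (SE 0.88) and brain by 2.97 (SE 0.88). No p-value is given, since the gene was chosen on testis and brain values. All 4 testes lay above all 4 of each other tissue. The margin over brain was narrow, with 6.56 in the lowest testis against 6.54 in the highest brain. In deposited intensity that testis, heterozygous replicate 3, read 75.04, below the brains of control replicates 2, 3 and 4 at 77.0, 117 and 122. With spleens at or below the lowest detected signal raised to that signal, testis was higher than spleen by 4.28 on the log2 scale. With wild-type controls only, 2 testes and 2 spleens, testis exceeded spleen by 6.70 (SE 0.24) and brain by 5.28 (SE 0.21). These differences are given without a test, since the gene was chosen on the level of those testes. ILMN_2628236 was detected in 0 of 4 control spleens. Its mean testis signal was at least 10.4-fold higher than spleen, measured against the lowest detected signal of each array, a bound that was not tested. The fitted difference of the measured values was 3.86 (SE 0.54), taken against spleens at background and given without a p-value. For the same probe testis exceeded brain by 3.39 (SE 0.54), also without a p-value.

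Such tissue differences were the rule on these arrays. Of 16638 probes, 78.1% passed between testis and spleen, 34.9% higher and 43.2% lower in testis, and 83.4% passed between testis and brain, 37.8% higher and 45.5% lower in testis. Brain lay in between: ILMN_2714209 was higher in brain than in spleen by 1.56 (SE 0.88), with a 95% interval of -0.32 to 3.44. The difference was 1.30 against the lowest detected signal of the spleens. With only wild-type controls the fitted difference was 1.43 (SE 0.21), the heterozygous testes no longer widening the shared spread. No p is given for either fit, since both use values that chose the gene. ILMN_2628236 was not detected in any spleen, and its brain mean did not exceed the lowest detected signal there, so no difference is given. Of all probes 76.2% passed between brain and spleen, 36.7% higher and 39.5% lower in brain. Brain mice were also older and other animals, so tissue and age cannot be told apart there.

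On this joint scale the heterozygous testes came close to brain. ILMN_2714209 read 6.56 and 7.18 in them and 5.73 to 6.75 over the 8 brains, so the lower heterozygous testis lay inside the brain range. ILMN_2628236 read 6.73 and 7.01 in the heterozygous testes, above the 8 brains.

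**Figure D5:**
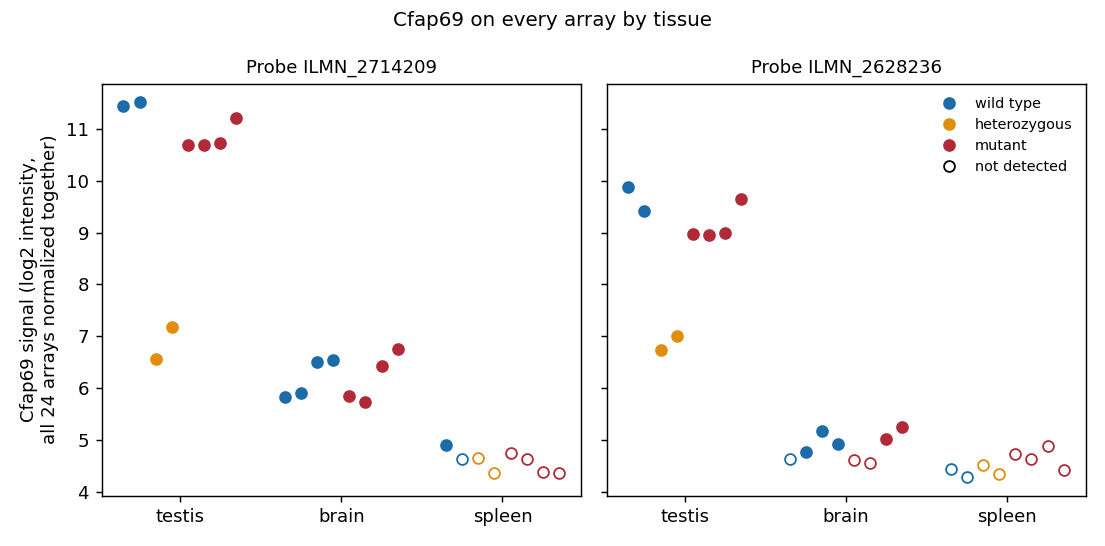
Cfap69 signal on all 24 arrays (vertical axis, log2 intensity with all arrays normalized together) in testis, brain and spleen (horizontal axis) for both probes; colours give the genotype, and hollow points were not detected. Wild-type and mutant testes lie at 8.96 or higher, the 2 heterozygous testes lie between 6.56 and 7.18, and spleens lie at 4.90 or lower.

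Other flagellar genes were counted as detected in a tissue when their probe was detected on at least 4 of its 8 arrays. Of 17 other Cfap genes on the array, 14 were detected in testis, 8 in brain and 4 in spleen. Of 28 structural flagellar genes the counts were 25, 10 and 9, and of 25 genes of motile cilia they were 19, 15 and 5. In spleen 8 of 14 elongating spermatid genes were also detected, against 1 in brain. Their summed intensity ran from 114 to 1946 over the spleens, highest in mutant replicate 1. The sum of the structural flagellar genes was also highest there among spleens, at 628. The part of this signal in the spleen counts was not tested. Hydin, a protein of the axonemal central pair, was not detected in any spleen, nor were Tekt3, a tektin, and Catsper1, a subunit of the sperm calcium channel. Since genes not detected in brain or spleen could enter the tissue comparison through testis alone, no count of those that passed is given.

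The transcripts most like Cfap69 were sought over the 16 testis and brain arrays. Likeness was the root-mean-square difference, in log2 units, from ILMN_2714209 after each tissue was centred on its own mean, over 10630 probes detected in both tissues. The other Cfap69 probe differed by 0.59. The next were B3galt4, a galactosyltransferase gene on chromosome 17, at 1.23, Rhbdd2, a rhomboid-domain gene elsewhere on chromosome 5, at 1.24, and Dph3, a gene of diphthamide synthesis on chromosome 14, at 1.24. A probe that did not vary at all would differ by 1.41, so by this measure these 3 genes were little nearer to Cfap69 than a flat line.

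By Pearson's correlation instead, which ignores the size of the changes, Grb7, Anapc2 and Mlst8 ranked highest. Grb7, an adaptor of receptor signalling, read 7.37 and 7.35 in wild-type, 6.92 and 6.92 in heterozygous and 7.17 to 7.35 in mutant testes, a far smaller change than that of Cfap69. Zmat3 and Pmvk ranked lowest. Zmat3, a zinc finger gene of the p53 response, read 6.75 and 6.61 in wild-type and 7.04 and 7.11 in heterozygous testes, the reverse order. On the 8 brain arrays alone, Hoxb4 at 0.165 and Cox11 at 0.171 came near the second Cfap69 probe at 0.133, where a flat line would differ by 0.397. With the deposited normalized table over 16 arrays the nearest was Nek3 at 0.740, against 0.494 for the second Cfap69 probe and 1.15 for a flat line. Of the 6 genes that ranked highest by the 2 measures over the 16 arrays, 1 was again among the 6 on testis arrays alone, 0 on brain arrays alone and 1 with the deposited normalized table.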

How the data were processed

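Total RNA of each organ was extracted with Trizol and column cleaning, amplified as biotin-labelled cRNA and hybridised to 1-colour bead arrays, per the labels' protocols. The authors deposited background-subtracted intensity values with a detection p-value beside each, per the file headers. GenomeStudio 2011.1 appears in the submitters' processing notes. A second deposited table holds normalized values whose method is not given in the sources used here; its log2 was an alternative only. No slide or scan date was given.

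From the deposited intensities, log2 values were made with neqc (background correction and quantile normalization, limma 3.58.1, R 4.3.3), within each tissue for genotype comparisons and over all 24 arrays for tissue comparisons. Probes with a detection p under 0.05 on at least 4 arrays of the comparison (8 within a tissue, the controls between tissues) were fitted with lmFit and eBayes, and two-sided p-values were adjusted by Benjamini-Hochberg over all of them. Values near background are compressed, so differences of dim probes are understated. The fit was tested on simulated data. The mutant minus control difference in brain and the differences between control tissues, planned as tests, are given without p-values. The gene was chosen on testis and brain values.

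The gene, the lists and the tests were chosen with earlier results of these data known. Genes named are both Cfap69 probes, up to 4 measured neighbours on each side, the most and least similar transcripts, genes past the threshold between heterozygous and wild-type testes, and up to 4 members of a list with the smallest p; Cnga2, Stoml3, Snap25, Pax5, Hydin, Tekt3 and Catsper1 were singled out after their values were seen. Gene names came from the platform annotation, in which 23978 probes have 1 symbol, 0 several and 1719 none, and neighbours from the RefSeq table of GRCm38.p6. Mice are separate animals. Mutants and controls share replicate numbers, but the deviations of same-numbered arrays correlated between -0.38 and 0.28, so the main fits did not use the numbers as pairs. In brain, however, ILMN_2714209 was lower in replicates 1 and 2 of both groups. There the replicate block narrowed the SE of its mutant minus control difference from 0.25 to 0.09. The gene was chosen on those brain levels, so nothing is read from the narrower SE. Testis and spleen of a number come from the same animal, per the labels.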

Additional observations from a re-analysis of the deposited data

Results flagged for a closer look

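Among 76 groups of 4 arrays examined for the named genes, 6 held an array far from the other 3, by a gap test that chance alone passes in about 1 group of 20. Cfap69, B3galt4, Grb7 and Pmvk were named for their values on these arrays, so that rate need not hold for them. In mutant testes, replicate 4 read 11.40 on Cfap69 probe ILMN_2714209 against 10.83 to 10.89 in the others, and 9.72 on ILMN_2628236 against 8.98 to 9.02. B3galt4 read 4.65 in heterozygous testis replicate 3 against 5.42 to 5.54 in the other controls. Grb7 read 7.35 in mutant testis replicate 3 against 7.17 to 7.19, and 7.41 in mutant brain replicate 4 against 7.28 to 7.30. Pmvk read 5.25 in mutant spleen replicate 4 against 5.05 to 5.08. All values are normalized log2 intensities.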

How the results depend on the processing

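The testis description kept its direction for both probes under each normalization, filter and left-out array tried. With the deposited normalized table the heterozygous minus wild-type difference of ILMN_2714209 was -3.93 and the mutant minus heterozygous difference 3.40. Probes past the threshold between heterozygous and wild-type testes numbered 1, not 3, with floored intensities and with the deposited table. The probe was ILMN_2714209 of Cfap69 in each case, which the choice of the gene accounts for. Leaving out 1 array at a time gave 2 to 3. The mutant minus wild-type difference of ILMN_2714209 in brain lay near 0, and its sign turned with median scaling, to 0.025, and between -0.21 and 0.15 when 1 array was left out. For ILMN_2628236 the brain difference turned to 0.0883 with floored intensities and to 0.0896 with median scaling, and ran from -0.19 to 0.12 over the left-out arrays. The control testis mean stayed above the spleen and brain means throughout. Brain minus spleen for ILMN_2714209 was 2.45 with the deposited table and 2.19 with each tissue normalized on its own. With wild-type controls only it was 1.43. All of these are given without a test. For ILMN_2628236, not detected in spleen, brain minus spleen turned to -0.22 with median scaling.

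With the replicate block, mutant minus control for ILMN_2714209 was 1.77 (SE 0.85) in testis and -0.01 (SE 0.09) in brain. Control testis exceeded spleen by 4.53 and brain by 2.97, while brain minus spleen was 1.56. Spleen probes failed the filter; without it, the mutant minus control differences were -0.06 and 0.16 and the heterozygous minus wild-type differences -0.15 and 0.05, with limma adjusted p of 1.00 for each. Dim signal limits the spleen and the second probe in brain.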
